A study of Mus musculus with 6 samples.

Results

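The 10 genes described here are 5 NF-κB subunits, namely Rela, Relb, Rel, Nfkb1 and Nfkb2, and 5 of their inhibitors, namely Nfkbia, Nfkbib, Nfkbie, Nfkbiz and Tnfaip3. They were taken by gene symbol from the 78298 genes of the deposited table, and each symbol matched 1 row. RENCA, an established mouse renal adenocarcinoma line, had been transduced with a lentivirus that carried the coding sequence of mouse Aqp1 (oe-AQP1) or with the corresponding empty vector (oe-NC), and the RNA of 3 samples per group was measured. Puromycin (2 μg/mL) was applied to both groups over 14 days, and both carried the lentiviral backbone and its resistance cassette, so that every sample was transduced and no untransduced RENCA cells were compared. The ubiquitin C promoter drove the transgene. The labels number the samples of a group and do not say whether each came from its own culture or transduction, so p-values measure only the spread between these samples, which may be technical. In bulk RNA, fewer cells of a type and less RNA per cell cannot be told apart.

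NF-κB is a family of transcription factors whose subunits pair through a shared Rel homology region. In resting cells the dimers are held in the cytoplasm by IκB proteins, whose ankyrin repeats cover the signal for nuclear import. Ligands such as TNF, and sensors of microbial RNA and lipids, activate the IκB kinase (IKK) complex, the IκB proteins are then degraded, and the dimers enter the nucleus. Several inhibitor genes are themselves NF-κB targets, which gives the pathway negative feedback, and in epithelial tumor cells the pathway is known for its control of chemokine and survival genes.

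Counts in the table are estimated reads per gene, which need not be whole. They summed to between 18385714 and 21920899 per sample. CPM, a gene's count scaled to a common sample total, was computed from rounded counts with totals adjusted by the TMM method. The groups were compared with limma-voom over the 15522 genes that passed a filter on low counts. In what follows, a gene rose or fell where its Benjamini-Hochberg adjusted p over these genes was under 0.05, and log2FC is the log2 of the fold difference, positive where oe-AQP1 was higher. The median log2FC over all genes tested was 0.002. Aqp1 itself was at 387 ± 4.75 CPM (SD, n = 3) in oe-AQP1 and at 1.86 ± 0.423 CPM (SD, n = 3) in oe-NC samples. Within oe-NC, sample 1 stood apart. Its counts differed from those of oe-NC samples 2 and 3 with a chi-square of 9.81 and 11.38 per gene, against 1.71 to 2.04 for the other 4 pairs of the same group, where sampling noise alone gives about 1. Where leaving it out changed the call of a gene named below, this is stated beside it. Of 8 kidney epithelial and renal carcinoma markers Krt8, Krt18, Pax2, Pax8, Cdh16 and Vim were expressed. Epcam and Havcr1 were at 0 in every sample. Of the 6 tested, 4 fell (Krt8, Krt18, Cdh16 and Vim), beside 16.6% of all genes tested. Pax8 had a log2FC of -0.07 (adjusted p = 0.25 by limma-voom). Pax2 had a log2FC of 0.25 (adjusted p = 0.124 by limma-voom) that was 0.41 without oe-NC sample 1 (adjusted p = 3.99e-06). The list summed to 1460 to 1480 CPM with oe-AQP1 and 1800 to 2010 CPM with oe-NC. Its largest part was Vim, which the paper treats as a mesenchymal marker, at means of 671 CPM with oe-AQP1 and 886 CPM with oe-NC.

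Of the 10 genes, 7 were higher in oe-AQP1 cells and 0 were lower. The 7 genes comprised 4 inhibitors (Nfkbie, Nfkbia, Tnfaip3 and Nfkbiz) and 3 subunits (Relb, Nfkb2 and Rel). For comparison, 16.0% of all genes tested were higher and 16.6% lower. Neither at an unadjusted p under 0.05 nor with edgeR or DESeq2 was any of the 10 genes lower, 0 in each case. The same 7 genes were the ones in which every oe-AQP1 sample lay above every oe-NC sample, a pattern shown by 23.5% of all genes. Only Nfkbia and Nfkbie also exceeded a log2FC of 1, as did 4.39% of all genes in this direction. Without oe-NC sample 1, 9 of the 10 genes were higher, with Rela and Nfkbib added, against 19.4% of all genes tested.

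**Figure D1:**
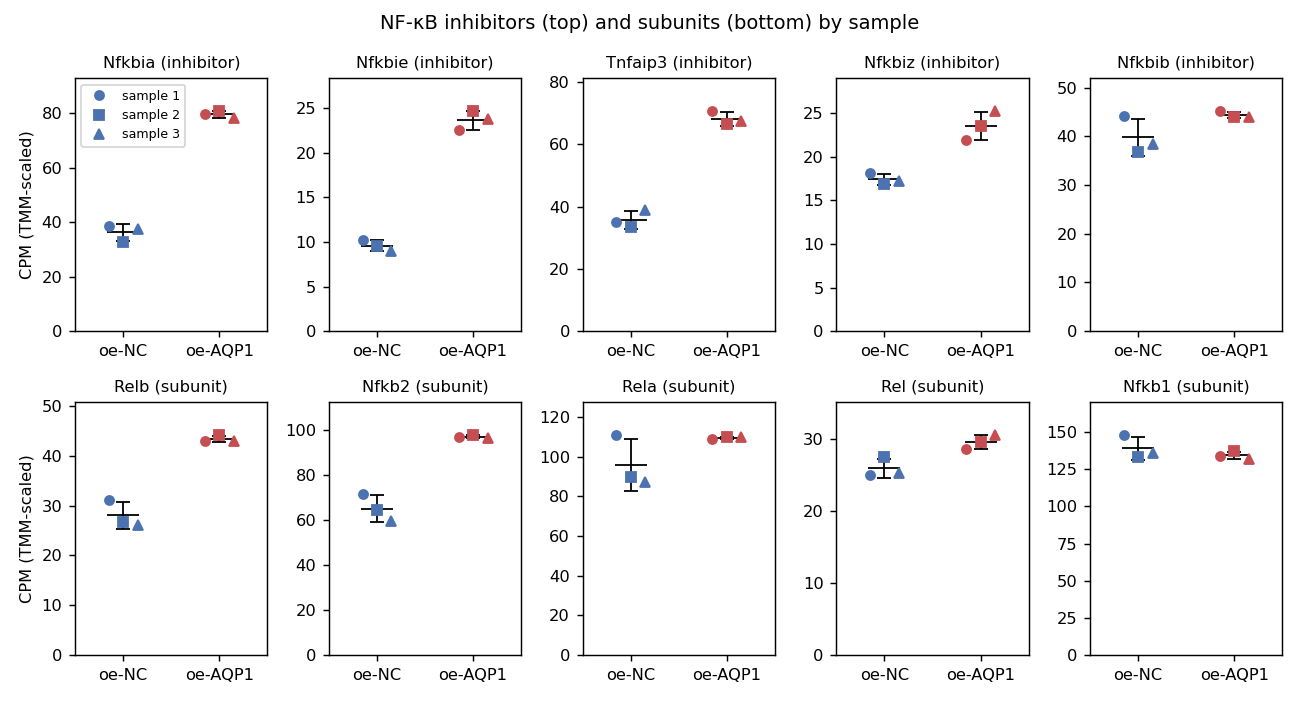
TMM-scaled CPM (y axis, from 0) of each of the 10 genes in the 3 oe-NC and 3 oe-AQP1 samples. Points are samples, their shape gives the sample number, and the bar with its error is the mean ± SD. For Nfkbia, Nfkbie and Tnfaip3 the groups are far apart, whereas for Rela and Nfkbib oe-NC sample 1 lies at the level of the oe-AQP1 samples.

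Stretches of the promoters are shown for the 5 genes in which a κB motif was found, to give the letters behind the counts. RefSeq promoters, from 250 bases before to 50 bases after the start on GRCm38.p6, were at hand for 7 of the 10 genes. The motifs searched on both strands were GGNNTTNCC and the stricter consensus κB site of 10 bases, which overlap each other. The former was found in 16.0%, the latter in 4.51% and at least 1 of them in 18.1% of 32851 promoters. Positions are counted from the start, and capitals mark the matches to either motif. The Nfkbia stretch covers -188 to -10 (chr12:55492657-55492835, reverse strand), the Tnfaip3 stretch -135 to -1 (chr10:19015411-19015545, reverse strand), the Nfkbie stretch -116 to -87 (chr17:45555584-45555613, forward strand), the Nfkb2 stretch -49 to -1 of its first listed promoter (chr19:46304688-46304736, forward strand) and the Rel stretch -102 to -72 (chr11:23771041-23771071, reverse strand).
Nfkbia: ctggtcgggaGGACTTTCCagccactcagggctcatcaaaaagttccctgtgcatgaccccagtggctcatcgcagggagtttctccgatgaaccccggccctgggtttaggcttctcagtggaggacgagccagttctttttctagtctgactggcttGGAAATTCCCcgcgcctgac
Tnfaip3: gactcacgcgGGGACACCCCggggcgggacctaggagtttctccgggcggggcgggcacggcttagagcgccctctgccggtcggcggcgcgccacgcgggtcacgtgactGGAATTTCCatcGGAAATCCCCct
Nfkbie: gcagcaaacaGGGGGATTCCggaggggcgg
Nfkb2: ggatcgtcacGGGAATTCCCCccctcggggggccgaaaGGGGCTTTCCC
Rel: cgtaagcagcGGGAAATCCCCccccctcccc

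In the Nfkbia promoter the matches lay at -178 to -170 and at -29 to -20. In that of Tnfaip3 they lay at -125 to -116, -24 to -16 and -12 to -3, the last pair being 3 bases apart. The promoters of Rela and Nfkbib held no match in this window, and a second Tnfaip3 promoter held none either. The 2 further Nfkb2 promoters held matches. Relb, Nfkb1 and Nfkbiz were not among the promoters used here. The motif GAAANNGAA, a core of interferon-response elements, was found on either strand in 8.56% of all promoters and among those of the 7 genes only in Nfkbia, at -53 to -45. A match describes letters and not a bound site, and a window without one says only that these letters are absent from it.

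Nfkbia (ENSMUSG00000021025) encodes IκBα, the inhibitor that is degraded first when the pathway is activated and is resynthesized soon after. Its GRCm39 position, the build used for all gene positions here, is chromosome 12, 55535332 to 55539432, reverse strand. Its level was 79.9, 80.7 and 78.3 CPM in oe-AQP1 samples 1 to 3 and 38.6, 32.8 and 37.6 CPM in oe-NC samples 1 to 3. Every oe-AQP1 sample was thus more than 2 times the highest oe-NC sample. The log2FC was 1.13 (standard error 0.06, 95% interval 1.00 to 1.27, adjusted p = 3.28e-07 by limma-voom), a 2.19-fold difference.

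Nfkbie (ENSMUSG00000023947, chromosome 17, 45866585 to 45874661, forward strand) encodes IκBε, another inducible IκB protein, which acts with a delay after IκBα. It had 10.2, 9.57 and 8.96 CPM in the oe-NC samples, and 22.5, 24.6 and 23.7 CPM in the oe-AQP1 samples. The groups did not overlap, and the lowest oe-AQP1 sample was more than 2 times the highest oe-NC sample. Its log2FC of 1.30 (standard error 0.08, 95% interval 1.13 to 1.48, adjusted p = 9.50e-07) was the highest of the 10, although its interval overlapped that of Nfkbia.

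Tnfaip3 (ENSMUSG00000019850, chromosome 10, 18874201 to 18891405, reverse strand) encodes a ubiquitin-editing enzyme that limits signaling upstream of the IKK complex, so it inhibits the pathway without binding the subunits. It had 70.6, 66.5 and 67.5 CPM in the oe-AQP1 samples and 35, 33.4 and 38.9 CPM in the oe-NC samples. The groups were again well separated, and the fold difference was 1.90 with an interval from 1.73 to 2.09 (limma-voom, adjusted p = 1.61e-06). Nfkbiz (ENSMUSG00000035356, chromosome 16, 55631738 to 55659262, reverse strand) encodes IκBζ, an atypical nuclear member that can also act as a coactivator. With 21.9, 23.5 and 25.2 CPM against 18.1, 16.9 and 17.2 CPM it rose less, by a log2FC of 0.44 (standard error 0.07, adjusted p = 0.00128). Its oe-AQP1 samples were spread more widely than those of the other 9 genes, with a coefficient of variation of 6.9%, but stayed above every oe-NC sample.

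Nfkbib (ENSMUSG00000030595, chromosome 7, 28457486 to 28466937, reverse strand) encodes IκBβ, which is not known as a strong feedback target. Its oe-AQP1 samples had 45.1, 44.0 and 44.0 CPM and its oe-NC samples 44.1, 36.8 and 38.4 CPM, so that oe-NC sample 1 reached the oe-AQP1 range. The log2FC of 0.16 (95% interval 0.01 to 0.31) did not pass the test (adjusted p = 0.0924). Without oe-NC sample 1 it was 0.24 (standard error 0.05) and passed (adjusted p = 6.11e-04). Exons of Nfkbib overlap those of Gm71901, Ccer2 and Sirt2 on the other strand by 338, 314 and 42 bases. Ccer2 had at most 3 counts and Sirt2 at least 989 per sample, and the expected counts of Nfkbib were not whole in 2 samples. The library kit named by the submitters is not stated to keep the strand, so reads in such stretches may not be assignable to a strand.

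**Figure D2:**
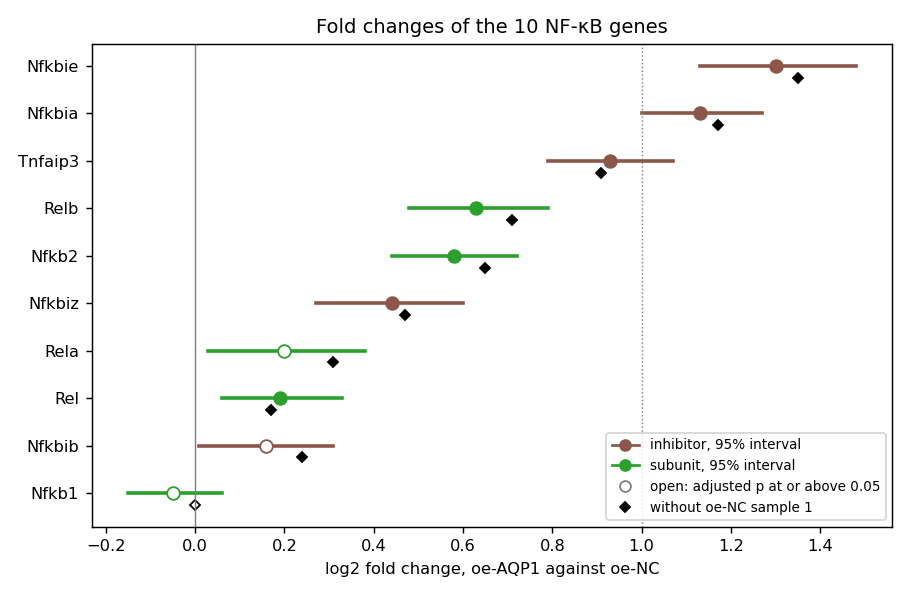
log2FC (x axis) of the 10 genes, ordered by size, with the 95% interval of limma-voom as a line and inhibitors and subunits in different colors. Filled circles passed an adjusted p of 0.05, open circles did not, the dotted line marks a log2 fold change of 1, and diamonds give the value without oe-NC sample 1. The 3 highest values are those of the inhibitors Nfkbie, Nfkbia and Tnfaip3.

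Among the subunits, Relb and Nfkb2 moved most. Both belong to the noncanonical branch of the pathway, in which the kinase NIK triggers processing of the Nfkb2 precursor protein and the product pairs with RelB. Relb (ENSMUSG00000002983, chromosome 7, 19339017 to 19363425, reverse strand) had 43.1, 44.2 and 43.0 CPM in the oe-AQP1 samples and 31.2, 26.8 and 26.2 CPM in the oe-NC samples. The log2FC of Relb was 0.63 (standard error 0.07, adjusted p = 6.64e-05). Nfkb2 (ENSMUSG00000025225, chromosome 19, 46292759 to 46303812, forward strand) had 96.6, 97.6 and 96.3 CPM against 71.4, 64.3 and 59.3 CPM, a log2FC of 0.58 (standard error 0.06, adjusted p = 6.11e-05). Both genes kept their groups apart by more than the range within either group. The expected counts of Nfkb2 were not whole in any of the 6 samples. Its exons overlap those of Psd by 1933 bases and those of the lncRNA 4833438C02Rik by 1081 bases, both on the other strand. In the table Psd had 192 to 279 counts per sample and 4833438C02Rik 51 to 121, against at least 1176 for Nfkb2. 4833438C02Rik rose by a log2FC of 0.63 (adjusted p = 0.0211), and the part of shared reads in either value was not tested.

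Rel (ENSMUSG00000020275, chromosome 11, 23686847 to 23721264, reverse strand) encodes c-Rel, a subunit best known from lymphoid cells. Its levels of 28.7, 29.6 and 30.6 CPM in oe-AQP1 and 25.1, 27.5 and 25.3 CPM in oe-NC samples lay close together. The log2FC of 0.19 (standard error 0.06) passed the test narrowly (adjusted p = 0.0334 by limma-voom), and it no longer passed when any 1 of the oe-AQP1 samples or oe-NC sample 3 was left out (adjusted p up to 0.126) or with DESeq2 (adjusted p = 0.11).

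Rela (ENSMUSG00000024927, chromosome 19, 5687493 to 5698161, forward strand) encodes the main transactivating subunit of the canonical dimer. It had 109, 110 and 110 CPM in the oe-AQP1 samples and 111, 89.6 and 87.1 CPM in the oe-NC samples. The oe-AQP1 samples were nearly identical, and oe-NC sample 1 was the highest of all 6. The log2FC of 0.20 (95% interval 0.03 to 0.38) did not pass (adjusted p = 0.0696), whereas without oe-NC sample 1 it was 0.31 (standard error 0.03, adjusted p = 2.22e-07). Nfkb1 (ENSMUSG00000028163, chromosome 3, 135290264 to 135397742, reverse strand) encodes the precursor of the DNA-binding partner of RelA. It had 134, 137 and 132 CPM in oe-AQP1 and 148, 133 and 136 CPM in oe-NC samples. The groups overlapped, and the 95% interval of its log2FC ran from -0.15 to 0.06 around -0.05 (adjusted p = 0.491).

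The inhibitors as a group shifted further than the subunits. Their log2FC ran from 0.16 to 1.30 with a median of 0.93, and those of the subunits from -0.05 to 0.63 with a median of 0.20. Of the 5 inhibitors 4 rose, and of the 5 subunits 3. These medians describe the chosen genes and carry no test. Without oe-NC sample 1 they were 0.91 and 0.31. Summed over the group, the inhibitors amounted to 239 to 240 CPM with oe-AQP1 and 129 to 146 CPM with oe-NC. The subunits amounted to 412 to 419 CPM and 334 to 387 CPM.

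To compare the roles independently of the scaling between samples, each gene was related to Rela within the same sample as the log2 ratio of counts. The Nfkbia to Rela ratio was -0.45, -0.45 and -0.49 in the oe-AQP1 samples and -1.52, -1.45 and -1.21 in the oe-NC samples. Relative to Rela, Nfkbia was thus higher by 0.93 on the log2 scale, and the groups were separated by more than their own spread. Nfkbie shifted by 1.10 against Rela, Tnfaip3 by 0.73 and Nfkbiz by 0.23, all without overlap. For Nfkbiz the groups nearly touched, with a lowest oe-AQP1 value of -2.31 and a highest oe-NC value of -2.34. Without oe-NC sample 1 the shift of Nfkbiz was 0.15. The Nfkbib to Rela ratio overlapped between the groups, at -1.30 ± 0.03 (SD, n = 3) against -1.26 ± 0.07 (SD, n = 3). Of the 9 ratios, 7 did not overlap between the groups, in either direction, against 43.1% of the other genes tested when related to Rela in the same way. Each of these 7 had p = 0.1 by an exact two-sided permutation test, the smallest value that 3 samples against 3 allow, and 0.13 after adjustment over the 9 ratios.

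Among the subunits, the log2 ratio to Rela was higher by 0.43 for Relb and by 0.37 for Nfkb2 in oe-AQP1 samples, without overlap but, as above, at an adjusted p of 0.13 by the exact permutation test. Nfkb1, in contrast, was lower relative to Rela, with a mean log2 ratio of 0.29 in oe-AQP1 against 0.54 in oe-NC samples, and the groups did not overlap. The Rel to Rela ratio overlapped between the groups, with a difference of -0.01. Without oe-NC sample 1 the difference was -0.14 without overlap (exact permutation p = 0.2, the smallest that 3 samples against 2 allow). Against Relb, the subunit with the highest fold change, the inhibitors divided. This reference was chosen after the values were seen. Nfkbie remained higher by 0.67, Nfkbia by 0.50 and Tnfaip3 by 0.30, the last with oe-AQP1 values of 0.59 to 0.71 close to the highest oe-NC value of 0.57. For Nfkbiz the shift turned to -0.20, with overlap between the groups, and for Nfkbib it was -0.47.

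**Figure D3:**
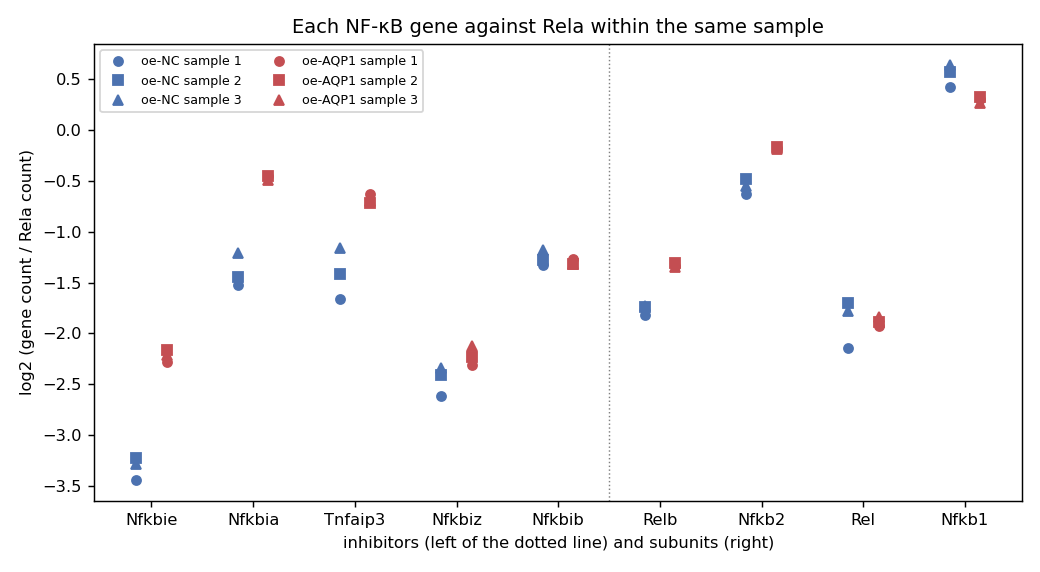
log2 ratio of each gene's count to the Rela count of the same sample (y axis), with inhibitors left and subunits right of the dotted line. Points are samples, with color for the group and shape for the sample number. For Nfkbie, Nfkbia and Tnfaip3 the oe-AQP1 samples lie clearly above the oe-NC samples, and for Nfkb1 they lie below.

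Levels were compared between genes per kilobase of merged exon length from GENCODE M39, and the order below depends on this length. By CPM alone Nfkb1 was above Rela and Nfkb2 in both groups. In oe-NC samples the means were 139 against 95.8 and 65.0 CPM, and in oe-AQP1 samples 134 against 110 and 96.8 CPM. In oe-NC cells Rela ranked first, at 29.3 ± 3.95 CPM per kb (SD, n = 3), followed by Nfkbia at 18.8 ± 1.60 and Nfkbib at 16.8 ± 1.63 CPM per kb, whose samples overlapped. Nfkb1 (10.8), Nfkb2 (8.23) and Relb (5.52) came next, each apart from its neighbors in level. Tnfaip3 (3.68) and Rel (3.35) could not be ordered beyond their spread, and Nfkbiz (3.10) and Nfkbie (2.28 CPM per kb) were lowest. In oe-AQP1 cells Nfkbia ranked first, at 41.1 ± 0.632 CPM per kb (SD, n = 3), above Rela at 33.5 ± 0.134 CPM per kb, with no sample overlapping. Nfkb2 at 12.3 CPM per kb passed Nfkb1 at 10.5 CPM per kb, and Nfkbie at 5.63 passed Nfkbiz at 4.19 and Rel at 3.82 CPM per kb. Nfkbiz and Rel overlapped.

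**Figure D4:**
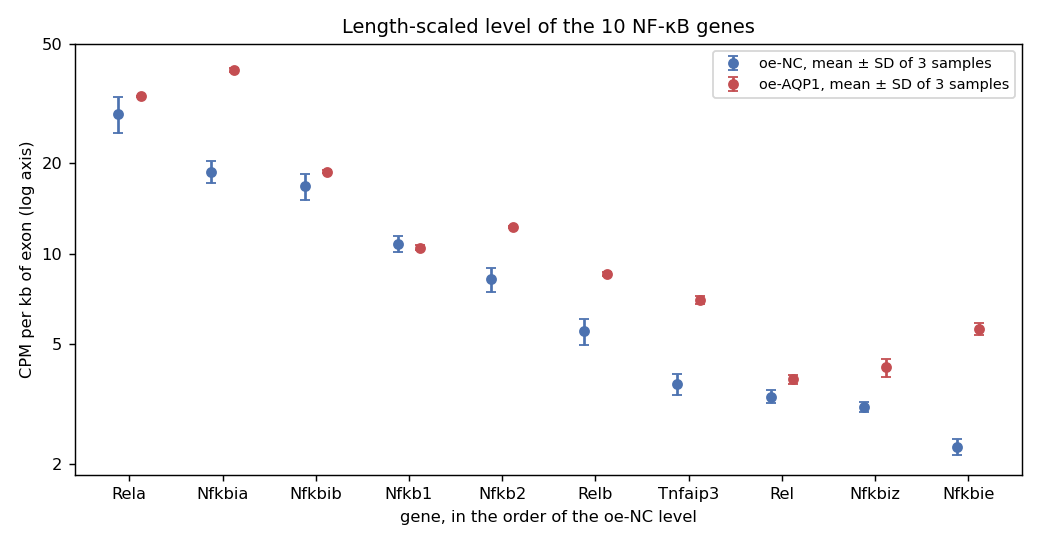
Mean CPM per kb of exon ± SD (log axis) of the 10 genes in 3 oe-NC and 3 oe-AQP1 samples, in the order of the oe-NC level. In oe-NC cells Rela is highest at 29.3 and in oe-AQP1 cells Nfkbia at 41.1 CPM per kb.

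The genes with the pattern most like that of Nfkbia over the 6 samples, by the Euclidean distance of centered log2 CPM among 10804 genes with a mean of at least 100 counts, were Nudt13 (0.12), Apol9a (0.13) and Trim26 (0.13), with log2FC from 1.13 to 1.17. For Tnfaip3 they were Gm15287 (0.08), Gm49342 (0.11) and Serping1 (0.11). These distances are over samples of only 2 groups and carry no test.

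Of 16 other regulators of the pathway 15 were tested, of which 3 rose and 1 fell, with a median log2FC of 0.06. Over all genes tested 16.0% rose and 16.6% fell, so neither count is read as a result about these regulators. The 3 were Nlrc5, a NOD-like receptor family member that also drives MHC class I genes (log2FC = 1.67, adjusted p = 8.57e-10), Tnip1, a partner of the Tnfaip3 protein (log2FC = 0.36, adjusted p = 0.00224), and Otulin, which removes linear ubiquitin chains (log2FC = 0.22, adjusted p = 0.00595). Nkiras2, an IκB-interacting Ras-like protein, fell by 0.23 (adjusted p = 0.0147 by limma-voom). It did not pass without oe-AQP1 sample 1 or 2. Of the nuclear IκB relatives, Bcl3 had a log2FC of 0.15 (adjusted p = 0.354), which was 0.29 and passed without oe-NC sample 1 (adjusted p = 0.0205). Nfkbid, with 13 to 27 counts per sample, had one of 0.06 (adjusted p = 0.896). Without oe-NC sample 1, 5 of the regulators rose and 2 fell, with Bcl3 and Tnip2 added to the former and Rnf11 to the latter.

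Of 11 kinase and kinase-adaptor genes 5 rose and 1 fell, with a median log2FC of 0.14. Over all genes tested 16.0% rose and 16.6% fell, so the 1 fall is not read as a result about these genes. The largest increases belonged to the IKK-related kinases of antiviral signaling, Ikbke (log2FC = 0.92, adjusted p = 5.85e-05) and Tbk1 (log2FC = 0.48, adjusted p = 3.52e-05), and to their adaptor Tank (log2FC = 0.64, adjusted p = 5.15e-05). Map3k14, which encodes NIK, rose by a log2FC of 0.41 (adjusted p = 0.00508). Of the core complex, the catalytic subunit gene Ikbkb rose by 0.14 (adjusted p = 0.0369), and it did not pass when any 1 sample other than oe-NC sample 1 was left out (adjusted p up to 0.143). Chuk did not pass (adjusted p = 0.727). Ikbkg had a log2FC of 0.10 (adjusted p = 0.185), which was 0.13 and passed without oe-NC sample 1 (adjusted p = 0.0383), and 7 of the 11 genes then rose, with Tab1 as the other addition. Map3k7, encoding the upstream kinase TAK1, fell by 0.19 (adjusted p = 0.0122). It did not pass without oe-AQP1 sample 1 or 3.

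Of 15 adaptor and ubiquitin ligase genes 11 rose and 2 fell, with a median log2FC of 0.27. Over all genes tested 16.0% rose and 16.6% fell, so the 2 falls are not read as a result about these genes. The extremes were Traf1, an inducible TNF receptor adaptor (log2FC = 0.82, adjusted p = 9.95e-04), and Irak1, a kinase of interleukin-1 and Toll-like receptor signaling (log2FC = -0.24, adjusted p = 0.00422). Without any 1 sample other than oe-NC sample 1, only 1 of these genes was lower by limma-voom. Of 9 receptor genes tested 5 rose and 1 fell, beside the same shares over all genes. Tlr3, a sensor of double-stranded RNA, rose most (log2FC = 2.48, adjusted p = 1.35e-09), and Il1r1 fell by 0.40 (adjusted p = 1.52e-04). Only 3 of 10 ligand genes had enough counts to be tested. Of these Tnf (log2FC = 1.87, adjusted p = 2.14e-07) and Ltb (log2FC = 1.02, adjusted p = 0.00800) rose, and Tnfsf12 fell by 0.48 (adjusted p = 0.00621). Ltb was scarce, with counts of 29 to 34 against 11 to 17.

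Of 23 known NF-κB target genes 20 were tested, of which 16 rose and 3 fell, with a median log2FC of 1.36. This list was chosen with earlier results of these data known. The shares over all genes tested were 16.0% higher and 16.6% lower, so the 3 falls are not read as a result. Tnf, Birc3 and Traf1 are also counted in the lists above. The 3 that fell were Lcn2, a secreted iron-carrier-binding protein (log2FC = -0.73, adjusted p = 4.74e-06), Sod2, the mitochondrial superoxide dismutase (log2FC = -0.38), and Bcl2l1, an anti-apoptotic BCL2 relative (log2FC = -0.44). The increases were largest for Il6, Ccl5 and Cxcl10, whose order could not be set beyond their intervals. Il6, a cytokine, had counts of 43, 43 and 41 under oe-AQP1 against 1, 1 and 0 under oe-NC, so its fold change is not given. The chemokine genes Ccl5 and Cxcl10 had log2FC of 5.20 (standard error 0.12) and 5.19 (standard error 0.05). The part of NF-κB or of interferon in the rise of the target genes was not tested.

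**Figure D5:**
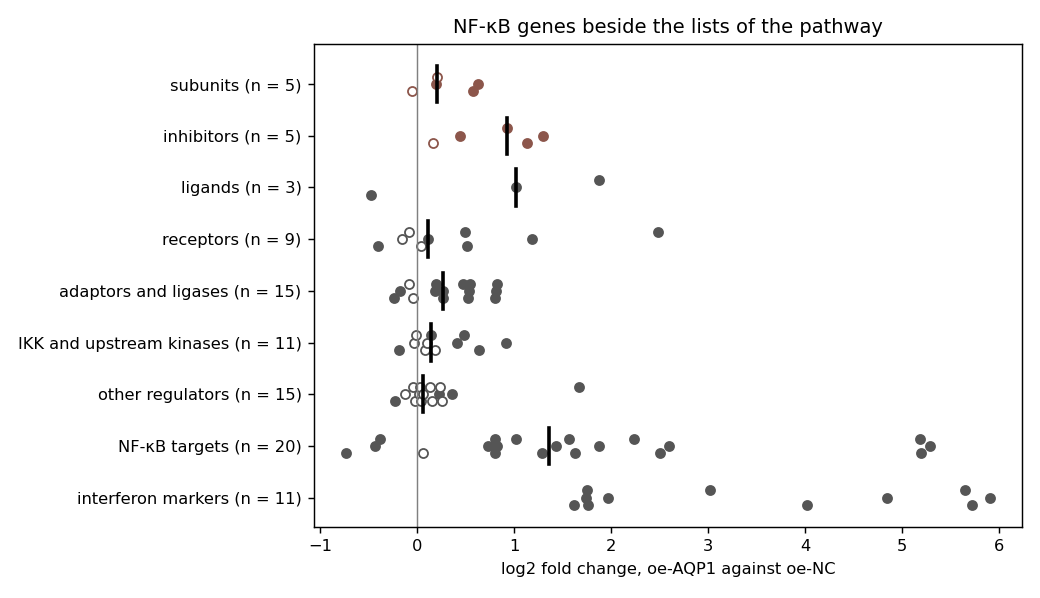
log2 fold change of each tested gene (x axis), by list. Filled points passed an adjusted p of 0.05, open points did not, and black bars are medians, drawn for every list except the interferon markers. The fitted values of Il6 among the targets and Ifna4 among the interferon markers rest on at most 1 count per oe-NC sample. The inhibitors have a median of 0.93 and the subunits of 0.20, against 1.36 for the target genes. The lists were chosen with earlier results of these data known, and the medians carry no test.

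Interferon markers differed between the same groups. All 11 interferon markers rose, from a log2FC of 1.62 for Oas1a to 5.91 for Mx1, an antiviral GTPase. Ifnb1, the gene of interferon beta, was counted 264 to 288 times per oe-AQP1 sample and 3 to 6 times per oe-NC sample. Summed over the list the markers amounted to 8040 to 8070 CPM with oe-AQP1 and 1560 to 1610 CPM with oe-NC. Their part in the rise of the 7 NF-κB genes and of the target genes was not tested. Of 9 macrophage markers 4 were tested, and 2 of them fell, Csf1r by 1.51 and Lyz2 by 0.52 on the log2 scale. Over all genes tested 16.6% fell. Cd14 had a log2FC of -0.16 (adjusted p = 0.147 by limma-voom) and Cd68 one of 0.15 (adjusted p = 0.0764). Cd68 was the largest part of the list, at 33.8 CPM with oe-AQP1 and 30.6 CPM with oe-NC. Ptprc, Adgre1, Itgam, Tyrobp and Fcer1g had at most 3 counts in every sample, and the summed list was at 59.0 to 62.2 CPM with oe-AQP1 and 69.3 to 71.3 CPM with oe-NC. The 4 T and NK cell markers had at most 3 counts in each sample. Of 4 fibroblast markers Col1a1 fell by 0.73 on the log2 scale (adjusted p = 0.00238 by limma-voom), Col1a2 had a log2FC of -0.11 (adjusted p = 0.825), Pdgfra and Dcn had at most 3 counts, and the list summed to 12.6 to 13.8 CPM with oe-AQP1 and 18.1 to 26.6 CPM with oe-NC.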

How the data were processed

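The authors sequenced paired-end TruSeq libraries of total RNA. The submitters' processing notes name fastp, HISAT2, featureCounts (Subread) and the build GRCm38 (mm10), whereas the paper names GRCm39. The role, order and settings of the tools are not given in the sources used here. The deposited unit is the expected count per gene, not scaled between samples, and 16.3% of genes have a value that is not whole. Another 2 deposited columns hold the authors' group means as a signal value and were not used. Of the 78298 genes, 78168 were found in GENCODE M39 (GRCm39), the source of positions and exon lengths. Promoter sequences are those of RefSeq on GRCm38.p6, a different build.

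Expected counts were rounded, filtered with edgeR's filterByExpr and compared by limma-voom with TMM, as the paper's methods name (limma 3.58.1, edgeR 4.0.16, DESeq2 1.42.0, R 4.3.3). Scaling factors ran from 0.993 to 1.006. A gene was called at an adjusted p under 0.05. The fits were tested on simulated counts. Ratios used a prior count of 0.5. Each sample held 18385714 to 21920899 counts. The members and lists were chosen with earlier results of these data known. Genes named outside the 10 are the extremes of each list, every called regulator and kinase gene, markers by list, and a few chosen after their values were seen (Bcl3, Nfkbid, Tnip2, Rnf11, Chuk, Ikbkg, Tab1, Sod2, Bcl2l1, Ccl5, Cxcl10). Alternatives were edgeR's and DESeq2's tests, other scalings and filters, sample quality weights, unrounded counts, a replicate block, and fits without each sample in turn.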

Additional observations from a re-analysis of the deposited data

How the results depend on the processing

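Of 160 recomputed log2 fold changes of the 10 genes, 149 kept their direction and their side of the threshold, and no called value turned direction. Of the 11 others, 6 were losses of Rel and 5 were gains of Rela or Nfkbib. Rel lost its call with DESeq2, without a filter on low counts (adjusted p = 0.167) and in 4 of the fits that left out 1 sample. Rela and Nfkbib gained theirs with sample quality weights (adjusted p = 8.47e-05 and 0.00203) and without oe-NC sample 1. Requiring also a log2 fold change above 1 left 2 of the 7 genes. Leaving out each sample in turn gave 6 to 9 genes higher and 0 lower, medians of 0.17 to 0.31 for the subunits and 0.88 to 0.99 for the inhibitors, and 7 to 8 ratios without overlap. Without Nfkbiz the median of the inhibitors was 1.03, and without Nfkb1 and Nfkb2 that of the subunits stayed at 0.20. With Relb in place of Rela, an alternative chosen after seeing the data, the shift of Nfkbiz was reversed to -0.20. At an adjusted p under 0.01, 1570 genes were higher and 1572 lower, against 2481 and 2569. Leaving out samples moved these to 1856 to 3125 and 1745 to 3331.

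For the lists, sample quality weights gave 5 other regulators higher and 2 lower, and DESeq2 or no filter gave 1 adaptor or ligase lower. Leaving out samples gave 3 to 5 other regulators higher and 0 to 2 lower, 4 to 7 kinases higher and 0 to 1 lower, and 9 to 11 adaptors or ligases higher and 1 to 2 lower. The samples shared only a number and were not paired by it (correlation of deviations 0.015, -0.02 and -0.073). With a replicate block 8 of the 10 genes were higher, with Rela added (adjusted p = 0.0447), 2346 genes were called higher and 2479 lower over all genes, and 2 other regulators were lower. Of the oe-AQP1 samples only sample 1 correlated best with its own number. The 10 genes had at least 175 counts in each sample.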

Other observations

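The 10 genes were more even among the oe-AQP1 samples than among the oe-NC samples. Their median coefficient of variation was 1.77% in oe-AQP1 and 8.22% in oe-NC samples, and it was larger in oe-NC for 9 of the 10, with Nfkbiz as the exception. Over 10804 genes with a mean of at least 100 counts the medians were 3.00% and 5.89%, and 75.2% of genes had the larger value in oe-NC samples. Between oe-NC samples 2 and 3 alone the median of the 10 genes was 3.86%, and 8 of the 10 were larger than in oe-AQP1. Over the 10804 genes, without oe-NC sample 1, the median in oe-NC was 2.66% and 46.0% of genes were larger in oe-NC. A spread over 2 samples tends to come out smaller than 1 over 3, so these values set no direction. The coefficient of variation of Rela was 0.401% in oe-AQP1 and 13.5% in oe-NC samples, and 1.96% between oe-NC samples 2 and 3.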
